A study of Mus musculus with 2 samples.

Results

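The family of miR-148 and miR-152 was examined as 5 mature miRNAs, mmu-miR-148a-3p, mmu-miR-148b-3p, mmu-miR-152-3p, mmu-miR-148a-5p and mmu-miR-148b-5p. They were chosen by name, and no cut on their values was used, but earlier results of these data were known. Each has 1 spot among the 1900 miRNA probes of a Toray 3D-Gene array. The arrays compared mouse tumours grown from ID-8 LUC2 cells, a luciferase-tagged ovarian cancer line of C57BL/6 origin, in C57BL/6 mice 5 weeks old. The control IgG group and the bevacizumab group carried the same intraperitoneal cells, and both received antibody at 5 mg/kg, 2 times a week, from day 14 until they were killed on day 42. Bevacizumab binds human VEGF-A, a growth factor for blood vessels, and its action on the VEGF-A of the host mice was not measured on the arrays. The labels give 1 array per group and do not state how many animals stand behind each RNA. The descriptions also differ on the material, with tumour RNA on an RNeasy column in one place and cells on a miRNeasy column in another. No spread between animals and no p-value can therefore be given, and each difference below is between these 2 arrays. In bulk RNA, fewer cells of a type and less miRNA per cell cannot be told apart.

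MicroRNAs repress messenger RNAs that pair with their seed, the stretch of bases 2 to 8. A precursor hairpin yields a 5p and a 3p arm, and usually one arm is kept as the working strand while the other is degraded. The 3p arms of miR-148a, miR-148b and miR-152 share their seed and are known for repressing Dnmt1, the enzyme that copies DNA methylation marks at cell division. miR-148a is abundant in liver and pancreas. The arrays carry no messenger RNA, so neither Dnmt1 nor any other target was measured.

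The mature sequences, from RefSeq with build GRCm38.p6, are shown because the 3p arms differ by so few bases that their probes may share signal. The seed is in capitals, and miR-152-5p, which is on the array but is not among the 5 members, is added to complete the 3 precursors.
miR-148a-3p: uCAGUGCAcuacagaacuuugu
miR-148b-3p: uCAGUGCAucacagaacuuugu
miR-152-3p: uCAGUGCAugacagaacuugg
miR-148a-5p: aAAGUUCUgagacacuccgacu
miR-148b-5p: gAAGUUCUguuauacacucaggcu
miR-152-5p: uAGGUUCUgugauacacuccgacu

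All 5 members had a RefSeq sequence. Counted from the 5′ end without gaps, miR-148a-3p and miR-148b-3p were the same at 20 of 22 bases and differed by C9U and U10C. miR-148b-3p and miR-152-3p were the same at 19 of 21 bases and differed by C10G and U20G. miR-148a-3p and miR-152-3p were the same at 18 of 21 bases and differed by C9U, U10G and U20G. None of these changes lies in the seed, so the 3 arms pair with the same target letters, UGCACUG. Of the 1900 probes, 1618 had a RefSeq mature sequence by name, and the 3 family members alone carried the seed CAGUGCA. Among the 5p arms, miR-148a-5p and miR-148b-5p shared the seed AAGUUCU, whereas miR-152-5p has A3G against both of them. How far the probes cross-react was not tested.

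The 3 precursors lie on 3 chromosomes. miR-148a-3p lies at chr6:51269829-51269850 on the minus strand, within the RefSeq span of the predicted gene Gm38821. miR-148b-3p lies at chr15:103285185-103285206 on the plus strand, within Copz1. miR-152-3p lies at chr11:96850439-96850459 on the plus strand, within Copz2. Copz1 and Copz2 encode paralogous zeta subunits of the coatomer, the coat of Golgi transport vesicles. Exon and intron positions were not used here. The hairpins of the members that were at least 2-fold lower show both arms, in capitals, on one strand.
Mir148a: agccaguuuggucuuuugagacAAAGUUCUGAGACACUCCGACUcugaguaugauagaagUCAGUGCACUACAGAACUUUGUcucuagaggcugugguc
Mir152: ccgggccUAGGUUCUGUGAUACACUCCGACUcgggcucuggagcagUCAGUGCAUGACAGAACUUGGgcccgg

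Levels are spot intensities, in scanner units, from which the blank-spot mean of the same array was taken. Blank spots lay at 72.8 ± 0.828 units (control IgG) and 185 ± 4.03 units (bevacizumab; mean ± SD over 808 spots, after leaving out the outer 5% on each side). A probe was called detected above the mean plus 2 SD, a level of 1.66 units for control IgG and of 8.06 units for bevacizumab. That limit was passed by 6.36% of the 896 blank spots of the control array and 6.58% of those of the bevacizumab array. It was passed by 1416 miRNA probes (74.5%) with control IgG and 940 (49.5%) with bevacizumab. Brightness differs between probes for technical reasons, so levels are compared between arrays for the same probe and not between miRNAs.

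All 3 3p arms were detected on the control array, and miR-148a-3p alone was detected on the bevacizumab array. The level of miR-148a-3p, the family member best known in the liver, was 277 units with control IgG and 39.3 units with bevacizumab. It exceeded all 896 blank spots on both arrays and also a stricter limit of 5 SD (20.2 units on the bevacizumab array). The level of miR-152-3p, the arm made from within Copz2, was 84.7 units with control IgG and 0.400 units with bevacizumab. On the control array its spot exceeded all 896 blank spots, and on the bevacizumab array it exceeded 54.1% of them, so it lay in the middle of the blanks. The level of miR-148b-3p, the arm made from within Copz1, was 16.3 units with control IgG and -1.05 units with bevacizumab. It too was above every blank spot of the control array and above 41.0% of those of the bevacizumab array.

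The 5p arms were not detected on either array. miR-148a-5p lay at 1.10 units with control IgG and 4.29 units with bevacizumab, which are 1.33 and 1.06 blank SDs from the blank mean. miR-148b-5p lay at 0.752 units with control IgG and -4.96 units with bevacizumab, which are 0.909 and -1.23 blank SDs from it. For both arms neither a presence nor a difference was detectable. miR-152-5p lay at 1.63 units with control IgG, just under the limit of 1.66, and at -6.13 units with bevacizumab. For each of the 3 precursors the detected arm was thus the 3p arm.

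**Figure D1:**
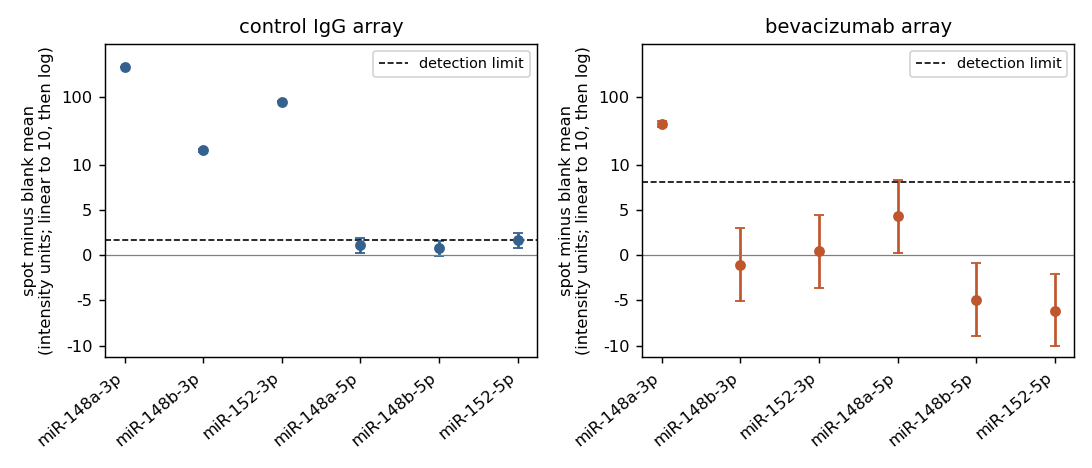
Level of each family miRNA on the control IgG array (left) and the bevacizumab array (right), as spot intensity minus the blank mean, on an axis that is linear up to 10 units and logarithmic above. Points are single spots, bars are 1 SD of the blank spots, and the dashed line is the detection limit. The 3p arms stand above the limit on the control array, and miR-148a-3p alone (39.3 units) does so on the bevacizumab array.

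Before any scaling between the arrays, miR-148a-3p was 7.04-fold lower on the bevacizumab array, or 6.36-fold to 7.86-fold when both levels are moved by 1 blank SD. A miRNA seen on the control array alone has only a bound, taken against the lowest signal of the probes detected on the bevacizumab array. By that bound miR-152-3p was lower by at least 10.5-fold and miR-148b-3p by at least 2.02-fold. Of the 1416 miRNAs detected on the control array, 14.2% were at least 2-fold lower by value or bound on this scale, on which the median difference of the miRNAs detected on both arrays was above 0 (log2 0.82). miR-148a-3p lay on the other side of 0 from that median. The bounds of miR-152-3p and miR-148b-3p, both past 2-fold, cannot lie above 0 and so give no such comparison.

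For the main comparison the intensities were corrected with the normexp model, with an offset of 50 units added, and quantile-normalized over all 1900 miRNA probes. The offset shrinks the differences of dim miRNAs. The normalized log2 level of miR-148a-3p was 8.32 with control IgG and 6.47 with bevacizumab, a log2 difference of -1.86 (3.62-fold lower). The only measured error is the spread of repeat spots of 5 control probes, which gave an SD of 0.16 for a log2 difference, and it does not cover labelling, hybridisation or animals. miR-152-3p was at least 2.41-fold lower (bound of log2 -1.27). For miR-148b-3p the bound was 1.19-fold (log2 -0.25), below the 2-fold size used for counts.

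Of the 5 members, 2 were at least 2-fold lower, miR-148a-3p by its value and miR-152-3p by its bound. A call of higher was open to miR-148a-3p alone, the member detected on both arrays. For comparison, 917 miRNAs could be measured on both arrays. Of these, 11.5% passed the 2-fold size downward and 10.5% upward, with a median log2 difference of 0.14. Among the 1416 detected on the control array, 8.47% were lower by value or bound. The lower miRNAs were gathered among bright probes and among miRNAs with low catalogue numbers, and miR-148a-3p belongs to both classes. Of the 230 of these miRNAs that were brightest on the control array, 43.0% were at least 2-fold lower (median log2 -0.50), and miR-148a-3p had the difference of rank 52 from the lowest. Of 246 miRNAs detected on both arrays with a number under 500, 32.1% were lower. A level at least 2-fold lower was therefore common in the classes to which miR-148a-3p belongs.

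The array-wide values near each arm put the bounds in context. Of 98 other miRNAs within 2-fold of miR-148a-3p in control level, 32 passed 2-fold downward and 35 passed it upward, so that miRNAs of this brightness differed both ways. All but 1 of these 98 were detected on the bevacizumab array. Of 206 other miRNAs within 2-fold of miR-152-3p in control level, 184 (89.3%) were still detected on the bevacizumab array, and miR-152-3p was among the minority that were not. Of these 206, 36 (17.5%) passed 2-fold downward and 49 passed it upward. Of 459 near miR-148b-3p, 363 (79.1%) were still detected. Of the 499 miRNAs detected on the control array alone, miR-152-3p was the 7th brightest there and miR-148b-3p the 53rd. The bound of such a miRNA depends on its control level alone, and 3.01% of the 499, miR-152-3p among them, were bright enough for a bound of at least 2-fold.

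**Figure D2:**
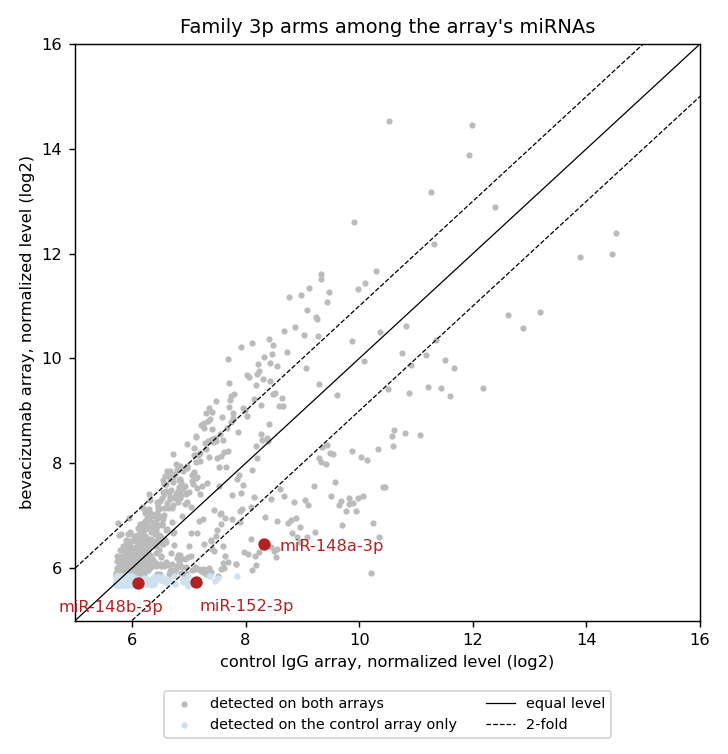
Normalized log2 level on the control IgG array (horizontal) and on the bevacizumab array (vertical) for each miRNA detected on both arrays (grey) or on the control array only (pale blue), with the family's 3p arms in red. miR-148a-3p lies below the lower 2-fold line in the branch of lower miRNAs, and miR-152-3p and miR-148b-3p lie on the floor of the bevacizumab array.

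The direction of the family rests on the background that is subtracted. miR-148a-3p was lower under 9 of the 10 alternative settings, all of which take the background from the blank spots. Among them, the detection limit of 5 SD and the omitted detection filter cannot change its value. The fold of miR-148a-3p was 4.11 with median scaling, 4.67 with cyclic loess and 7.01 with an offset of 0. It was 17.0 in the authors' deposited table and 34.1 with scaling to the spike controls. In the authors' deposited table it stood at 547.8 for control IgG and 32.3 for bevacizumab. There miR-152-3p (167.6) and miR-148b-3p (32.3) were listed on the control array alone, which bounds them at 25.4-fold and 4.89-fold lower. By the authors' deposited values, 33.7% of the 1417 miRNAs listed on the control array were at least 2-fold lower by value or bound.

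With the local background around each spot in place of the blank spots, the difference of miR-148a-3p was at 0 (log2 0.01). Those of miR-152-3p (log2 0.32) and miR-148b-3p (log2 0.19) were above 0, but they use bevacizumab spots that were not detected. On the control array the local background of miR-148a-3p was 343.1 units under a spot of 349.4, and that of miR-152-3p, 166.8, exceeded its spot of 157.5. On the bevacizumab array the local background of miR-148a-3p was 206.6 under a spot of 224.3, and that of miR-152-3p was 153 under a spot of 185.4. The median local background of the miRNA probes was 69.2 units for control IgG and 160.7 units for bevacizumab. Their median spot minus local background was 10.8 units for control IgG and 37.2 units for bevacizumab. Of the 105 miRNAs detected on both arrays and called at least 2-fold lower, 43 were above 0 with this correction. Whether the local background around these spots holds signal of the spots themselves was not tested.

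**Figure D3:**
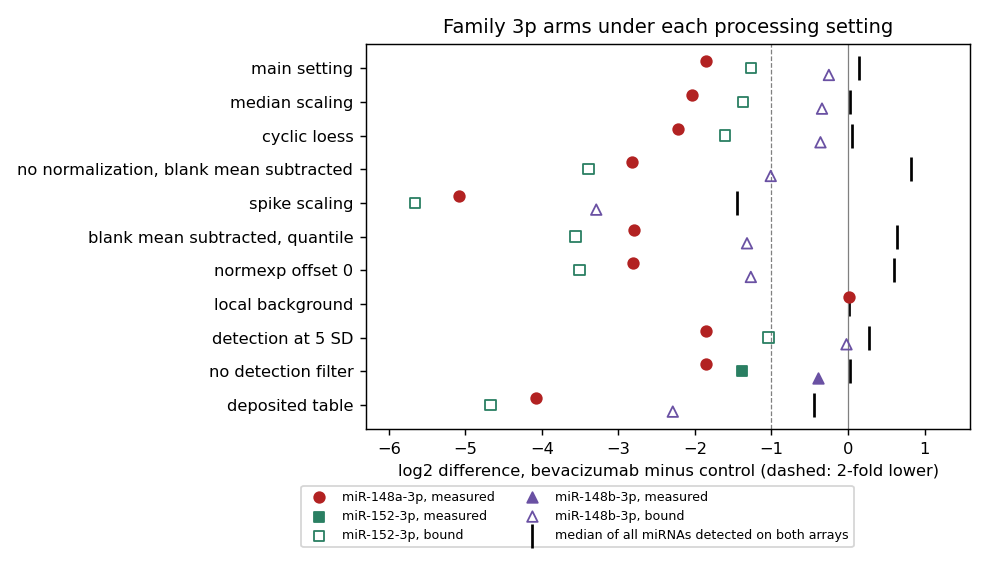
Log2 difference, bevacizumab minus control, of the family's 3p arms under the main setting and 10 alternatives, with measured values filled, bounds open and the median of all miRNAs detected on both arrays as a black bar. The dashed line marks 2-fold lower. miR-148a-3p lies left of it except with local background (0.01), where the other arms have no bound.

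By likeness of level, the 3 miRNAs nearest to miR-148a-3p over the 2 arrays were miR-20b-5p, miR-34a-5p and miR-199b-5p, at distances of 0.142, 0.188 and 0.225 log2 units. miR-20b-5p, of the miR-17 family, went from 313 to 35.6 units above the blanks (normalized 4.14-fold lower). miR-34a-5p, induced by p53, went from 249 to 31.2 units (3.81-fold lower). miR-199b-5p, common in fibroblasts, went from 326 to 32.0 units (4.51-fold lower). With 2 arrays, likeness means only a similar brightness on each.

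Other miRNAs reported to target DNA methyltransferase transcripts, mainly in human cells, were lower as well. Of 11 on the list, all were detected on the control array and 7 on both. Of the 11, 8 were at least 2-fold lower, 6 by value and 2 by bound, beside the 8.47% lower among all miRNAs detected on the control array. None of the 7 detected on both arrays was at least 2-fold higher, a call that the others could not receive. The median log2 difference of the 7 was -2.69, against 0.14 for all miRNAs detected on both arrays. All 11 have a number under 500, a class in which 32.1% of the miRNAs detected on both arrays were lower, with a median log2 difference of -0.13. Among the 230 brightest the share was 43.0% and the median -0.50. Both shares leave out bounds, and on that base 6 of the 7 list members detected on both arrays were lower. With local background in place of the blank spots, 3 of the 11 were at least 2-fold lower in place of 8. The list was drawn up with earlier results of these data known, so it is a description.

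Within the list, the miR-29 family, which represses Dnmt3a and Dnmt3b, the enzymes that set new methylation marks, was lower in all 3 members. miR-29a-3p went from 2490 to 307 units above the blanks and was 5.76-fold lower after normalization. miR-29b-3p went from 1590 to 142 units and was 7.49-fold lower, and miR-29c-3p went from 1180 to 119 units and was 6.44-fold lower. All 3 log2 differences lay further below 0 than that of miR-148a-3p. miR-143-3p, a miRNA of smooth muscle and mural cells, was 13.5-fold lower, and miR-126a-3p, of endothelium, was 7.34-fold lower. The spot minus its local background ran the other way for miR-143-3p, from -74.9 units with control IgG to 37.1 with bevacizumab. It did so too for miR-126a-3p, from -267 to 34 units, and for miR-29a-3p, from -238 to 166 units. The spot of miR-29c-3p exceeded its local background by 56.7 units with control IgG and by 85.0 units with bevacizumab. miR-200b-3p, an epithelial miRNA, was 3.19-fold lower, while its spot minus local background ran from -50.4 units with control IgG to 25.4 with bevacizumab. miR-101a-3p and miR-101b-3p, which also target Ezh2, were lower by at least 3.05-fold and by at least 2.07-fold. The bounds for miR-200c-3p, at 1.87-fold, and for miR-185-5p, at 1.46-fold, stayed under 2-fold. Spot minus local background fell for miR-29b-3p (877 to 89.5 units), miR-101a-3p (79.2 to 38.1), miR-101b-3p (44.7 to -7.36) and miR-200c-3p (14 to -4.61). It rose for miR-185-5p (6.53 to 16.1 units) and miR-342-3p (-0.678 to 79.8). Of these, only miR-29b-3p and miR-342-3p were detected on both arrays. The median of spot minus local background over all miRNA probes also rose, from 10.8 units with control IgG to 37.2 with bevacizumab. miR-342-3p was the member above 0 (log2 0.30), at 72.0 units with control IgG and 106 units with bevacizumab, and was below 0 in the authors' deposited table (log2 -0.72). Several of these miRNAs mark cell types, and their part in the list's difference was not tested.

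**Figure D4:**
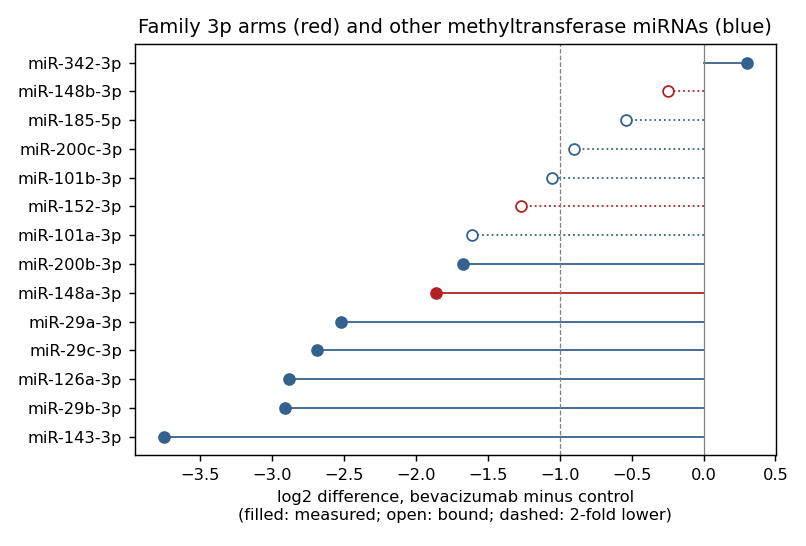
Normalized log2 difference, bevacizumab minus control, of the family's 3p arms (red) and of 11 other miRNAs reported to target DNA methyltransferases (blue), with measured values filled and bounds open. The dashed line marks 2-fold lower. miR-143-3p is the lowest (-3.75), miR-148a-3p (-1.86) lies between miR-29a-3p and miR-200b-3p, and miR-342-3p is the one above 0.

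Of the markers of pancreas and liver, tissues in which miR-148a is abundant, some were at or near the blanks and others well above them. The acinar miR-216a-5p lay at -1.50 units on the control array, and was detected on neither array. miR-216b-5p, miR-217-5p and the islet miR-375-3p were detected on the control array alone, where they summed to 11.6 units. The hepatocyte miR-122-5p (0.262 units) and miR-122-3p (-1.02 units) were below the limit on both arrays. The rest of the hepatocyte list, miR-192-5p (71.7 units) and miR-194-5p (127 units), which liver shares with gut and kidney, stood well above the control array's limit. Both were lower on the bevacizumab array, the list's detected signal going from 199 to 8.37 units. Spot minus local background ran the other way, from 22.6 to 44.3 units for miR-192-5p and from 9.46 to 53.8 for miR-194-5p. Its median over all miRNA probes rose as well, from 10.8 units with control IgG to 37.2 with bevacizumab. Most, but not all, markers of other cells of a tumour were lower too. Of the epithelial list, all 5 miR-200 family probes were detected with control IgG and 1 with bevacizumab (549 and 31.4 units summed). Their spot minus local background rose for miR-200a-3p (-8.05 to 37 units) and miR-200b-3p (-50.4 to 25.4). It fell for miR-200c-3p (14 to -4.61 units), miR-141-3p (3.54 to -6.31) and miR-429-3p (42.5 to 1.71). The detected signal of the 4 stromal and mural probes went from 3480 to 465 units, with 3 of 4 at least 2-fold lower. That of the 2 endothelial probes went from 997 to 86.5 units, with both lower by value. The 2 erythroid probes went from 1700 to 144 units, with both lower by value or bound. These sums are not normalized, are led by bright probes and leave out probes under each array's limit. The stromal miR-214-3p differed the other way, at 87.2 units with control IgG and 140 units with bevacizumab (log2 0.39). In the authors' deposited table, however, miR-214-3p was below 0 (log2 -0.58). Spot minus local background rose for miR-143-3p (-74.9 to 37.1 units), miR-126a-3p (-267 to 34) and miR-144-3p (26.1 to 32.8). These bevacizumab values did not exceed that array's median of 37.2 units over all miRNA probes, and miR-144-3p was not detected there. Spot minus local background fell for miR-145a-5p (424 to 96.7 units), miR-199a-3p (84 to 65.6), miR-126a-5p (-0.237 to -15.4) and miR-451a (1050 to 113). Of the 5 leukocyte probes 2 were lower by bound, and neither of those measured on both arrays passed 2-fold. For those lower by bound, miR-142a-3p (31.8 to 39.2 units) and miR-142a-5p (-4.72 to 2.98), spot minus local background rose. It fell for miR-223-3p (50.2 to 41.9 units). The lymphocyte miR-150-5p was at 21.1 units with control IgG and 44.2 units with bevacizumab (log2 0.33). By the deposited values it too was below 0 (log2 -0.2). The detected signal of the leukocyte list went from 282 to 72.1 units. The part of cell make-up in the family's difference was not tested.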

How the data were processed

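Spots were read in the red channel, per the file headers, as a median intensity and a local background intensity. The deposited scanner intensities are linear, joined over 3 scan gains and not normalized. The authors' deposited value table holds linear intensities. Set against the scanner values, these were the spot minus the blank mean, divided by 0.505 (control) or 1.217 (bevacizumab), which set the median listed value at 25.0 on both arrays. They are not centred per miRNA, and dim miRNAs are empty. The sources used here do not name the software. All 3200 spots per array were read, of which 896 are blanks and 404 are controls. Intensities of the 1900 miRNA probes were corrected with limma 3.58.1 (normexp, all 896 blanks as negative controls, offset 50) in R 4.3.3, quantile-normalized and compared as log2 bevacizumab minus control, with 2-fold as the size for counts. The procedure was tested on simulated data. With 1 array per group there was no test; the number of arrays limits the precision. The members, lists and alternatives were chosen with earlier results of these data known. Named miRNAs were the members, the 3 nearest to each member detected on both arrays, the methyltransferase list and the cell type markers.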

Additional observations from a re-analysis of the deposited data

How the results depend on the processing

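The 3p median rests on miR-148a-3p, the 1 arm detected on both arrays, so both give the same values (log2 -1.86 in the main setting, unchanged at a detection limit of 5 SD). It was -2.04 with median scaling, -2.22 with cyclic loess, -2.80 with the blank mean subtracted before quantile normalization, -2.81 with an offset of 0 and -2.82 with no normalization. It was -4.08 with the deposited values. It was -5.09 with spike scaling, which used 5 control probes picked after their values were seen. With no detection filter the median of the 3 arms was -1.39. With local background it turned to 0.01, with 0 of 5 members and 3 of 11 methyltransferase miRNAs at least 2-fold lower. In the other settings the counts were 2 or 3 of 5 and 7 to 11 of 11, against 2 and 8 in the main setting. These settings also moved the median of all miRNAs detected on both arrays, from 0.14 to -0.45 with the deposited values, -1.45 with spike scaling and 0.82 with no normalization. The bound of miR-152-3p stayed past 2-fold in each setting that gave one (log2 -1.04 to -5.66). That of miR-148b-3p passed 2-fold in 5 of the 8 alternatives that gave one. With local background neither had a bound. The detection limit of the bevacizumab array, 8.06 units against 1.66 on the control array, limits what can be said of the dim arms.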

Other observations

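Local background was set against the spot for probes within 2-fold of miR-148a-3p in level on each array, which are different probes on the 2 arrays. It made up a median of 68.5% of the spot with control IgG (98 probes) and 78.0% with bevacizumab (365 probes). For miR-148a-3p itself it was 98.2% and 92.1%. For miR-152-3p, whose level is outside that 2-fold range on both arrays, it was 106% and 82.5%. It exceeded the spot for 49 of 1900 miRNA probes with control IgG and 22 with bevacizumab.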
